A study of Mus musculus with 20 samples.

Results

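Lungs of mice given Shegan-Mahuang Decoction (SMD) were compared with lungs of mice given prednisone, in an RNA sequencing study of an asthma model. The comparison used 5 SMD and 5 prednisone libraries, 10 of the 20 in the series, placed in their groups by the labels. The other 10 libraries, 5 of the untreated model and 5 of controls, entered the fit and are given for context. All mice carried the genotype label wt, the design text puts 15 mice in each group, and the SMD, prednisone, model and control libraries all came from lung tissue. Strain, age, sex, doses, the days of treatment, the way the model was made and the hour of tissue collection are absent from the labels used here. The treatment label of prednisone replicate 5 carries the number of replicate 1, so its place follows its title. Libraries of a group are named as separate samples but not outright as separate animals, so p-values reflect spread among samples that may be technical.

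SMD is a herbal formula of traditional Chinese medicine used for wheezing and cough, and its second named herb, Mahuang, is Ephedra. Prednisone is a synthetic glucocorticoid that the body converts to prednisolone. Prednisolone binds the glucocorticoid receptor, a transcription factor kept in the cytosol by heat shock chaperones, and the bound receptor moves to the nucleus, switches on genes such as Fkbp5, Tsc22d3 and Zbtb16 and restrains inflammatory genes. The adrenal hormone corticosterone acts on the same receptor in mice, follows a daily rhythm and rises under stress.

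Expression was deposited as FPKM, fragments per kilobase of gene scaled to the mapped fragments of the library, so levels can be set against each other between genes. In the 10 libraries, FPKM values summed to 377639 to 438315, and 14195 to 14707 genes reached 1 FPKM. Sftpc, the surfactant protein of alveolar type 2 cells, averaged 13658 FPKM in SMD and 13584 FPKM in prednisone lungs, and Scgb1a1, the club cell secretoglobin, was the most abundant gene in every one of the 10 libraries, so both groups carried defining lung markers. On the first principal component of log2(FPKM + 1), which held 22.9% of the variance, all 5 SMD libraries had negative scores and all 5 prednisone libraries positive scores. Prednisone replicates 1 and 4 stood apart from the other prednisone libraries on the second component (16.0% of the variance), with scores of -21.1 and -17.8 against 2.83 to 10.3. Markers of fat tissue tended to be lower in SMD lungs. The summed FPKM of 15 adipose genes was 95.7 to 131 in SMD libraries and 132 to 241 in prednisone libraries. By mean log2(FPKM + 1) of the same genes the groups overlapped, at 1.72 to 2.29 in SMD and 1.97 to 3.06 in prednisone libraries. Among prednisone libraries, replicates 1 and 4 had the highest fat scores.

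Of 15106 genes tested, 693 (4.59%) passed an adjusted p of 0.05 in limma, a linear model over all 20 libraries with Benjamini-Hochberg adjustment. SMD lungs were higher for 327 of them (2.16% of genes tested) and lower for 366 (2.42%). The split depended on scaling: with every library scaled to the same sum, 72 were higher and 335 lower, and after removal of trends with gene length and GC content, 479 were higher and 340 lower. Most differences were small. The median absolute log2 fold change of the 693 genes was 0.42, and 26 genes fell by more than 1 on the log2 scale, against 2 that rose by as much. Those 2, named after their values were seen, were Rapgef4 (log2 fold change 1.15) and the small nucleolar RNA Snord17 (1.41), whose groups overlapped and whose calls were lost in 7 and 14 alternatives. The 5 SMD and 5 prednisone values did not overlap for 918 genes (6.08%), and 502 of these were among the 693. Leaving out SMD replicate 4 reduced the 693 genes to 457 and the 327 higher genes to 174. The higher genes numbered 191 without prednisone replicate 1 and 217 without prednisone replicate 4. Without prednisone replicates 1 and 4 together, a step added after the data were seen, 333 genes passed, 117 higher and 216 lower.

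**Figure D1:**
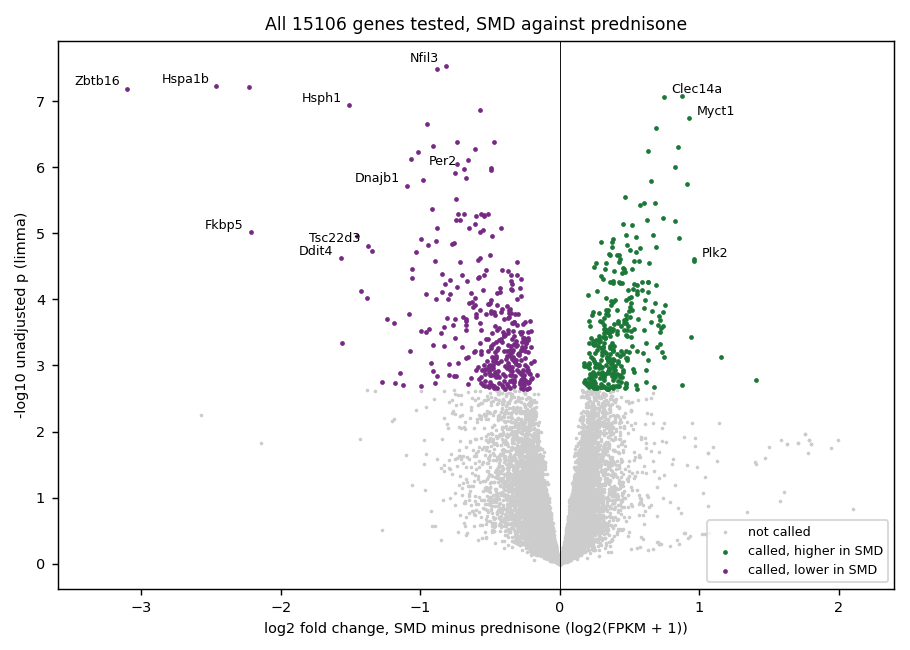
Each point is 1 of the 15106 genes tested, placed by its log2 fold change (SMD minus prednisone, on log2(FPKM + 1)) and by the -log10 of its unadjusted p in limma. Green points passed and were higher in SMD (327 genes), purple points passed and were lower (366 genes), and the lowest fold changes among passing genes are those of Zbtb16, Hspa1b, Hspa1a and Fkbp5.

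Genes that glucocorticoids switch on were lower in SMD than in prednisone lungs. Of 27 measured members of a list of such genes, 19 (70.4%) fell and 0 rose, where 2.42% of all genes tested fell. The median log2 fold change of the list was -0.61, against -0.00426 over all genes tested. In 13 of the 27, every SMD value lay below every prednisone value, where 3.34% of all genes did so. Without prednisone replicates 1 and 4, the number that fell was 9. Leaving out any 1 library gave 15 to 21.

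Zbtb16 had the lowest log2 fold change of all 15106 genes. It encodes a zinc finger repressor that is a sensitive glucocorticoid target, and lies at chr9:48654297-48836222 on the minus strand of GRCm38. Its FPKM was 1.64, 1.28, 0.962, 1.38 and 0.719 in SMD replicates 1 to 5, against 22.6, 12.3, 16.4, 23.7 and 15.8 in prednisone replicates 1 to 5. The groups were far apart, with the highest SMD value below the lowest prednisone value, and the SMD mean was 0.0659 times the prednisone mean. The log2 fold change was -3.10 ± 0.36 (SE; limma adjusted p = 0.000184). Zbtb16 averaged 13.8 ± 8.44 FPKM in the model and 15.8 ± 3.97 FPKM in controls (SD, n = 5 each), so SMD lungs were the group that stood apart.

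Fkbp5, a co-chaperone that lowers the receptor's affinity for hormone, lies at chr17:28399094-28517527 on the minus strand. Its FPKM was 6.30, 3.35, 3.23, 2.89 and 1.66 in SMD replicates 1 to 5 and 37.9, 13.98, 10.4, 20.8 and 19.6 in prednisone replicates 1 to 5. No SMD value reached the lowest prednisone value, and SMD replicate 1 was the highest of its group (log2 fold change -2.21 ± 0.37, adjusted p = 0.00246). Tsc22d3, the glucocorticoid-induced leucine zipper that curbs NF-kB, was at 183, 66.5, 111, 78.3 and 127 FPKM in SMD libraries and at 369, 237, 215, 323 and 270 FPKM in prednisone libraries. It fell by 1.38 on the log2 scale (adjusted p = 0.00314), again with no overlap between the groups.

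The metabolic and growth-arrest members followed. Klf15, a transcription factor of amino acid breakdown, averaged 11.1 ± 5.08 FPKM in SMD and 29.1 ± 8.76 FPKM in prednisone lungs (log2 fold change -1.35). Pdk4, the kinase that spares glucose by blocking pyruvate dehydrogenase, averaged 2.92 ± 0.53 and 10.1 ± 4.27 FPKM in SMD and prednisone lungs (-1.43). Ddit4, an inhibitor of mTORC1, averaged 11.3 ± 4.11 FPKM in SMD and 34.9 ± 9.52 FPKM in prednisone lungs (-1.57). Cdkn1a, the cell cycle inhibitor p21, averaged 10.53 ± 1.13 and 31.6 ± 9.33 FPKM in SMD and prednisone lungs (-1.46). Mt2, a metallothionein that binds zinc, averaged 14.5 ± 3.78 FPKM in SMD and 29.2 ± 7.3 FPKM in prednisone lungs (-0.96), though an antisense transcript overlaps it and the strand setting of the counting is not given. All 5 passed (adjusted p between 0.00265 and 0.00765), and Pdk4 and Mt2 no longer did without prednisone replicates 1 and 4 (0.0686 and 0.0717).

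Not every member passed. Dusp1, a phosphatase that shuts off MAP kinases, averaged 155 ± 31.1 FPKM in SMD and 223 ± 55.8 FPKM in prednisone lungs. Its values overlapped between the groups (log2 fold change -0.51, limma unadjusted p = 0.0247, adjusted p = 0.181). Dusp1 also overlaps Ergic1 on the other strand. Anxa1, annexin A1, had a log2 fold change of 0.09, the only positive one of the 27, and Tgm2, transglutaminase 2, one of -0.06. Neither passed. The receptor gene itself, Nr3c1, was at 19.7, 22.1, 18.9, 23.7 and 19.6 FPKM in SMD libraries and at 18.1, 20.4, 20.5, 18.3 and 22.8 FPKM in prednisone libraries. Those ranges overlapped almost fully, with a log2 fold change of 0.05 ± 0.07 (adjusted p = 0.742) whose sign turned negative under same-sum scaling.

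By group mean, SMD lungs were the lowest of the 4 groups in 24 of the 27 glucocorticoid-induced genes (88.9%), and prednisone lungs the highest in 19 (70.4%), where the same held for 4277 (28.3%) and 3772 of all 15106 genes. Each treatment was also set against the model, whose libraries the 2 comparisons share, with 2.15% of genes tested passing for SMD and 8.04% for prednisone. For Zbtb16 the log2 fold change was -2.49 in SMD against model (adjusted p = 0.00343) and 0.61 in prednisone against model (0.328). Fkbp5 gave -2.19 (0.00651) for SMD and 0.02 (0.978) for prednisone, Tsc22d3 -1.14 (0.0231) and 0.23 (0.608), and Klf15 -1.28 (0.0134) and 0.07 (0.895). All 4 passed for SMD against model, and none of the 4 did for prednisone against model. Mt2 did likewise, with -0.75 (limma adjusted p = 0.0474) for SMD and 0.21 (0.552) for prednisone. Ddit4, Cdkn1a and Pdk4 passed in neither. Ddit4 gave -1.06 (0.0544) for SMD and 0.51 (0.29) for prednisone, Cdkn1a -0.78 (0.0932) and 0.67 (0.1005), and Pdk4 -0.85 (0.111) and 0.57 (0.229).

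Receptor-bound DNA often holds a pair of half-sites facing each other, AGAACA and, after 3 free bases, its reverse complement TGTTCT. In 32851 RefSeq promoter windows of GRCm38.p6, each running from 250 bases before to 50 bases after a transcript start that RefSeq gives, 3 held this full motif (0.00913%). Of the 24 list members with a window, only Sgk1 held it, 189 bases before 1 of its RefSeq starts. Here and for the motifs below, windows are counted over all promoters but genes in the lists. A gene counts if any of its windows holds a match, so the shares are not like for like. Starts differ between annotations: 62.9% of the windows held the start of a GENCODE transcript of the same gene. The stretch is shown, 5′ to 3′ with the motif in capitals, because Sgk1 was also among the genes that fell (chr10:21993661-21993755, plus strand).
Sgk1: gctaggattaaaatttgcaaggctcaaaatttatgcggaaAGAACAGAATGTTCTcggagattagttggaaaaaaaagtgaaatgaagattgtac
Sgk1 encodes a kinase that raises sodium channel activity. It was at 49.8, 46.6, 51.6, 48.1 and 49.6 FPKM in SMD libraries, against 68.6, 67.7, 74.5, 60.2 and 69.5 FPKM in prednisone libraries. SMD values were tightly grouped and all lower (log2 fold change -0.46, adjusted p = 0.0193, or 0.0514 with no filter on low genes). A match describes letters in this window and says nothing of binding in these lungs.

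Heat shock chaperones, which refold damaged proteins and also hold the glucocorticoid receptor ready for hormone, were lower in SMD lungs. Of 23 measured members, 11 fell (47.8%) and 0 rose, with a median log2 fold change of -0.34, where 2.42% of all genes tested fell. The groups did not overlap for 9 of the 23, where 3.34% of all genes were lower in SMD without overlap. Leaving out 1 library gave 8 to 13 genes that fell, and leaving out prednisone replicates 1 and 4 gave 7.

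Hspa1b and Hspa1a, which encode the stress-inducible HSP70, lie at chr17:34956436-34959238 and chr17:34969190-34972156, both on the minus strand. Their coding sequences are nearly identical, so how reads were divided between them is uncertain. Hspa1b was at 3.55, 1.88, 1.96, 2.12 and 3.40 FPKM in SMD libraries and at 26.3, 10.7, 18.5, 20.6 and 19.0 FPKM in prednisone libraries. Hspa1a was at 3.17, 1.78, 1.57, 1.72 and 2.19 FPKM in SMD libraries and at 17.5, 8.29, 14.2, 14.8 and 12.97 FPKM in prednisone libraries. Every prednisone value of both copies lay above every SMD value (log2 fold changes -2.46 ± 0.29 and -2.22 ± 0.26, adjusted p = 0.000184 for each).

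Hsph1, an HSP110 that helps HSP70 exchange its nucleotide, averaged 16.6 ± 3.25 FPKM in SMD and 49.1 ± 8.93 FPKM in prednisone lungs (-1.51, adjusted p = 0.000217). Dnajb1, the HSP40 that delivers clients to HSP70, averaged 10.6 ± 2.5 and 23.5 ± 1.46 FPKM in SMD and prednisone lungs (-1.097, adjusted p = 0.000905). Dnaja1, another HSP40, gave -1.07, and Chordc1, an HSP90 co-chaperone, gave -0.75. Hspa8, the constitutive HSC70, averaged 143 ± 26.6 FPKM in SMD and 246 ± 42.2 FPKM in prednisone lungs (-0.78, adjusted p = 0.00765). Hsp90aa1, the inducible HSP90 that holds the receptor, averaged 119 ± 19.2 and 171 ± 26.7 FPKM in SMD and prednisone lungs with overlapping values (-0.52, adjusted p = 0.0284). Its call was lost without any 1 of SMD replicates 2, 3 and 5 or prednisone replicates 1, 4 and 5 (adjusted p = 0.0522 to 0.0769). Of 15 genes of receptor handling, which overlap this list, 3 fell (where 2.42% of all genes tested did): Hspa8, Hsp90aa1 and Stip1, the adaptor between HSP70 and HSP90 (-0.54). That count was 1 without any 1 of SMD replicates 2, 3 and 5 or prednisone replicates 1, 4 and 5, and 0 without prednisone replicates 1 and 4. Hsf1, the heat shock factor, had a log2 fold change of -0.14 and did not pass.

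The most changed chaperones, Hspa1b, Hspa1a and Hsph1, passed against the model in both treated groups, in opposite directions. Dnajb1, Hspa8 and Hsp90aa1 passed in neither (limma adjusted p between 0.0532 and 0.558). Hspa1b gave -1.32 in SMD against model (adjusted p = 0.0261) and 1.14 in prednisone against model (0.0218). Hsph1 gave -0.75 (0.0405) in SMD and 0.77 (0.0173) in prednisone. The model lay between the treated groups for both, and controls averaged 4.46 ± 1.58 FPKM of Hspa1b and 18.1 ± 3.86 FPKM of Hsph1.

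**Figure D2:**
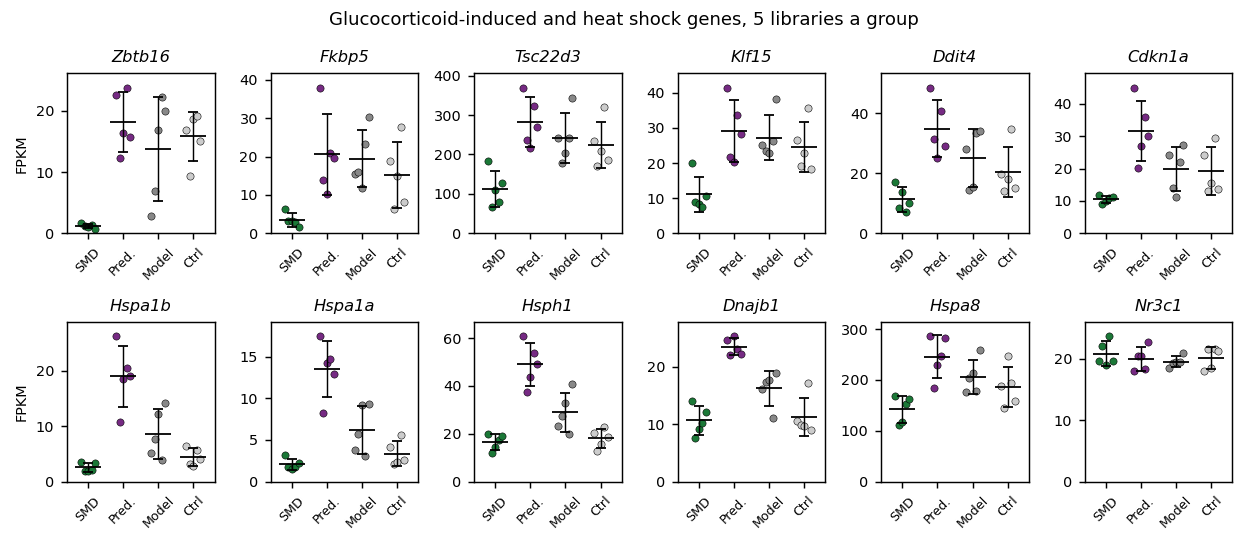
FPKM of 12 genes in each library (points), with the mean and SD of each group of 5 (bar and whiskers), for SMD, prednisone, model and control from left to right. SMD points lie below all prednisone points for every gene shown except Nr3c1, whose groups overlap.

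The heat shock factor binds repeats of GAA facing alternate ways. The run GAA, TTC, GAA or its reverse complement TTC, GAA, TTC, with 2 free bases between units, occurred in 198 of the 32851 promoter windows (0.603%). Counted by gene rather than by window, it occurred in 4 of the 17 list members with a window (23.5%): Chordc1, Hspd1, Hspe1 and Hsph1. Those of Hsph1 and Chordc1 are shown with the motif in capitals because both genes fell. The Hsph1 match begins 36 bases after the RefSeq start of its window (chr5:149636287-149636308, minus strand), while the GENCODE gene starts further upstream. Chordc1 holds 3 overlapping matches, the first beginning 4 bases before its RefSeq start (chr9:18292260-18292288, plus strand), which lies inside the GENCODE gene.
Hsph1: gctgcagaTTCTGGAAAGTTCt
Chordc1: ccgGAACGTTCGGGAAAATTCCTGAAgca
Hspd1 and Hspe1, the mitochondrial chaperonin pair, gave -0.37 and -0.24 on the log2 scale (adjusted p = 0.0532 and 0.355), so genes with the motif did not all pass. Hspd1 passed in 7 of the alternatives, same-sum scaling among them.

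Several other falls belonged to none of the lists described so far. Arl4d, a small GTPase, averaged 18.4 ± 4.51 FPKM in SMD and 48.0 ± 22.9 FPKM in prednisone lungs, where replicates 1 and 4 held the top values of 78.8 and 65.6 (log2 fold change -1.24, adjusted p = 0.0127, or 0.0957 without those 2 libraries). Mettl21e, a lysine methyltransferase known from muscle, averaged 1.63 ± 1.09 and 4.70 ± 1.21 FPKM in SMD and prednisone lungs (-1.19, adjusted p = 0.0136). Map3k6, a stress kinase, fell by 1.08 and Adamts15, a matrix protease, by 1.14. The Map3k6 call (adjusted p = 0.0233) was lost without any 1 of SMD replicates 2 to 5 or prednisone replicates 1 and 4. That of Adamts15 (0.0359) was lost without any 1 of SMD replicates 2 to 5 or prednisone replicates 1, 4 and 5. Herpud1, a membrane protein of the endoplasmic reticulum stress response, averaged 56.0 ± 6.98 FPKM in SMD and 85.2 ± 8.7 FPKM in prednisone lungs (-0.60, adjusted p = 0.00181). It was the only 1 of 30 genes of endoplasmic reticulum folding to pass (3.33%, where 2.42% of all genes tested fell). The median log2 fold change of that list was 0.055.

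Of 19 measured genes of the daily clock, 3 rose (15.8%) and 3 fell (15.8%), where 2.16% and 2.42% of all genes tested did so. The list as a whole lay lower in SMD lungs, with 16 negative and 3 positive log2 fold changes, a median of -0.20, and 9 lower against 3 higher at an unadjusted p under 0.05. Dbp, an output gene driven directly by the clock, lies at chr7:45705088-45710203 on the plus strand. Its FPKM was 66.6, 86.3, 76.9, 72.3 and 64.6 in SMD libraries and 23.6, 53.2, 46.2, 32.4 and 36.7 in prednisone libraries. SMD lungs were higher without overlap (0.96 ± 0.17, adjusted p = 0.00405). Nr1d1, the clock repressor REV-ERB alpha, averaged 34.5 ± 5.9 and 18.8 ± 4.52 FPKM in SMD and prednisone lungs (0.86 ± 0.15, adjusted p = 0.00273). Both genes overlap a neighbour on the other strand, Sphk2 for Dbp and Thra for Nr1d1, and reads of the pairs may not be separated.

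Nfil3, a repressor that opposes Dbp at the same DNA sites, moved the other way. It was at 1.02, 1.102, 1.09, 0.988 and 0.891 FPKM in SMD libraries, against 2.67, 2.48, 2.83, 2.63 and 2.17 FPKM in prednisone libraries. The level was low but the libraries of each group were close together (-0.82 ± 0.09, adjusted p = 0.000184). Per2, a core clock repressor, averaged 15.6 ± 1.91 FPKM in SMD and 25.7 ± 2.38 FPKM in prednisone lungs (-0.68, adjusted p = 0.000637). Per1, also on the glucocorticoid list, gave -0.49 (0.0114), and Bhlhe41, a clock-controlled repressor, gave 0.48 (0.0277). Bhlhe41 lost its call under same-sum scaling and without any 1 of SMD replicates 2 and 3 or prednisone replicates 1, 4 and 5. The hour of collection is not given for either group, so its part in these values was not tested.

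Set against the model, whose libraries both comparisons share, Dbp gave -0.15 in SMD (adjusted p = 0.682) and -1.11 in prednisone (0.00299), and Nr1d1 gave 0.02 (0.956) and -0.84 (0.0047). Nfil3 gave -0.33 in SMD (0.0594) and 0.48 in prednisone (0.00713). Per2 gave -0.50 in SMD (0.017) and 0.19 in prednisone (0.26). Dbp, Nr1d1 and Nfil3 therefore passed for prednisone against model, and Per2 for SMD against model.

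Some markers of blood vessels were higher in SMD lungs. Of 28 measured markers of lung endothelium, 6 rose (21.4%) and 0 fell, with a median log2 fold change of 0.20 and 25 positive values, where 2.16% of all genes tested rose. The groups did not overlap for 3 of the 28, where 2.74% of all genes were higher in SMD without overlap. Gja5 and Gja4, connexins of arterial endothelium, rose by 0.64 and 0.59. Aplnr, the apelin receptor, rose by 0.71, Plvap, the protein of endothelial diaphragms, by 0.54, and Kdr, the VEGF receptor, and Calcrl, a receptor of adrenomedullin, by 0.38 each. Gja5 was at 16.8, 17.9, 13.01, 18.6 and 16.2 FPKM in SMD libraries and at 8.46, 11.6, 10.8, 8.89 and 11.6 FPKM in prednisone libraries, with no overlap. Gja5 and Plvap each overlap a gene on the other strand.

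The count of 6 endothelial genes was 2 with every library scaled to the same sum and 0 without prednisone replicates 1 and 4. The Kdr call was also lost without any 1 of SMD replicates 1, 2 and 4 or prednisone replicates 1 and 2, and that of Calcrl without any of these or prednisone replicate 4. Other endothelial genes did not pass, among them Pecam1 and Cdh5, which join endothelial cells (0.16 and 0.26). Flt1, a VEGF receptor that also acts as a decoy, did not pass either. Flt1 gave 0.01, with a sign that flipped under same-sum scaling. In whole lung, more endothelial cells and more RNA per cell cannot be told apart. By group mean, prednisone lungs were the lowest of the 4 groups in 24 of the 28 genes (85.7%), where the same held for 32.3% of all genes tested.

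Among the 15 largest rises without overlap, Clec14a and Myct1 are also known from endothelium. Clec14a, a vessel lectin at chr12:58264720-58269290 on the minus strand, was at 53.9, 56.5, 57.9, 69.8 and 50.1 FPKM in SMD libraries and at 30.7, 30.9, 36.2, 30.9 and 40.7 FPKM in prednisone libraries. SMD lungs were higher without overlap (0.75 ± 0.09, adjusted p = 0.000184), and controls averaged 59.5 ± 5.88 FPKM. Myct1 averaged 17.2 ± 2.44 FPKM in SMD and 8.62 ± 1.7 FPKM in prednisone lungs (0.93, adjusted p = 0.000273).

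Plk2, a kinase of the stress and growth-factor response at chr13:110395046-110400844 on the plus strand, had the largest rise under the rule for named genes. It was at 24.2, 37.4, 29.9, 43.2 and 27.9 FPKM in SMD libraries and at 12.3, 18.1, 19.7, 13.97 and 16.1 FPKM in prednisone libraries. Every SMD value lay above every prednisone value, and SMD values spread more (0.97 ± 0.18, adjusted p = 0.00414). Ier3, an early response gene that modulates survival, averaged 66.0 ± 13.9 and 34.2 ± 3.93 FPKM in SMD and prednisone lungs (0.91, adjusted p = 0.000874). Tnfrsf12a, the receptor of the cytokine TWEAK, averaged 16.5 ± 1.64 FPKM in SMD and 8.74 ± 1.25 FPKM in prednisone lungs (0.85, adjusted p = 0.000462). Hbegf, a ligand of the EGF receptor, averaged 13.2 ± 2.52 FPKM in SMD and 7.48 ± 1.24 FPKM in prednisone lungs (0.74, adjusted p = 0.00194).

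The other large rises were of mixed function. Ackr4, a scavenger of chemokines, averaged 3.33 ± 0.41 FPKM in SMD and 1.36 ± 0.17 FPKM in prednisone lungs (0.88, adjusted p = 0.000184), and lies within a span shared with Acad11 on the other strand. Rnd1, a small GTPase that loosens actin, averaged 3.93 ± 0.49 and 1.78 ± 0.3 FPKM in SMD and prednisone lungs (0.83). Wnt7a, a Wnt ligand made by lung epithelium, averaged 2.69 ± 0.34 and 1.09 ± 0.3 FPKM in SMD and prednisone lungs (0.82). Hic1, a repressor known from quiescent mesenchyme, C1qtnf2, a secreted C1q-like protein, and Plxdc1, a plexin-domain protein of vessels, rose by 0.75, 0.74 and 0.73. The last 3 calls were lost without prednisone replicates 1 and 4 (adjusted p = 0.0717, 0.0788 and 0.105). In SMD against model, Wnt7a, Rnd1, Tnfrsf12a, Ackr4, Hbegf and Plxdc1 also passed (0.67, 0.54, 0.45, 0.50, 0.48 and 0.65). Their adjusted p in limma lay between 0.0205 and 0.0441. In prednisone against the same model libraries, Tnfrsf12a, Ackr4, Ier3 and C1qtnf2 passed (-0.40, -0.37, -0.47 and -0.69, adjusted p between 0.0136 and 0.0374). Plk2 and Hic1 passed in neither.

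Genes of cholesterol synthesis were higher in SMD lungs. Of 28 measured genes of cholesterol and fatty acid synthesis, 5 rose (17.9%) and 0 fell, with a median log2 fold change of 0.20, where 2.16% of all genes tested rose. The 5 were Hmgcs1, Fdft1, Sqle and Msmo1, enzymes between acetyl-CoA and cholesterol, and Stard4, a cholesterol carrier. The Stard4 call was lost in 12 alternatives. These included leaving out any 1 of 7 libraries (limma adjusted p up to 0.0909), same-sum scaling (0.16) and leaving out prednisone replicates 1 and 4 (0.169). Hmgcs1, which makes the precursor of mevalonate (chr13:119690379-119708260, plus strand), was at 27.6, 29.6, 26.9, 28.5 and 26.1 FPKM in SMD libraries and at 16.5, 21.8, 20.7, 19.5 and 21.9 FPKM in prednisone libraries. SMD values were higher and closer together (0.45 ± 0.07, adjusted p = 0.00211). Sqle, squalene epoxidase, averaged 11.1 ± 0.95 FPKM in SMD and 7.95 ± 0.83 FPKM in prednisone lungs (0.43, adjusted p = 0.00625).

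Fatty acid enzymes went without calls: Fasn, fatty acid synthase, gave -0.37, and Scd1, stearoyl-CoA desaturase, which fat tissue also makes, gave -0.43. The count was 8 with quantile normalization. Against the shared model libraries, Hmgcs1 gave 0.08 in SMD (adjusted p = 0.584) and -0.37 in prednisone (0.00784), and Sqle gave 0.02 (0.937) and -0.42 (0.00789).

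Lung epithelium contributed single genes. Aqp5, the water channel of alveolar type 1 cells, was at 82.1, 78.0, 74.3, 85.8 and 86.2 FPKM in SMD libraries and at 46.7, 57.2, 58.8, 54.5 and 59.7 FPKM in prednisone libraries. Its groups did not overlap (0.55 ± 0.10, adjusted p = 0.00353). Cxcl15, the lung-specific chemokine lungkine of epithelial cells, averaged 327 ± 38.8 FPKM in SMD and 220 ± 37.2 FPKM in prednisone lungs (0.58 ± 0.10, adjusted p = 0.00326). Krt19, a keratin of simple epithelia and mesothelium, averaged 77.8 ± 4.84 and 57.5 ± 5.58 FPKM in SMD and prednisone lungs (0.43, adjusted p = 0.00405). Of 17 type 1 cell markers 2 rose, and of 17 type 2 cell markers 1 rose, with list medians of 0.13 and -0.03, where 2.16% of all genes tested rose. Of 32 genes of motile cilia, 1 fell (3.12%, where 2.42% of all genes tested did): Foxj1, the master factor of ciliated cells, averaged 26.7 ± 4.61 FPKM in SMD and 36.6 ± 1.95 FPKM in prednisone lungs (-0.45, adjusted p = 0.0228). That call was lost without any 1 of SMD replicates 4 and 5 or prednisone replicates 2 and 4. Of 19 club and mucous cell genes 0 passed, with 2 on either side at an unadjusted p under 0.05.

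Among 14 genes of adrenergic and muscarinic signalling, 1 passed (7.14%, where 2.16% of all genes tested rose). Adrb1, the beta-1 receptor for adrenaline, averaged 11.8 ± 1.1 FPKM in SMD and 8.24 ± 1.07 FPKM in prednisone lungs. SMD lungs were higher without overlap (0.47 ± 0.08, adjusted p = 0.00264). Against the shared model libraries, Adrb1 gave 0.01 in SMD (adjusted p = 0.949) and -0.46 in prednisone (0.00462).

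**Figure D3:**
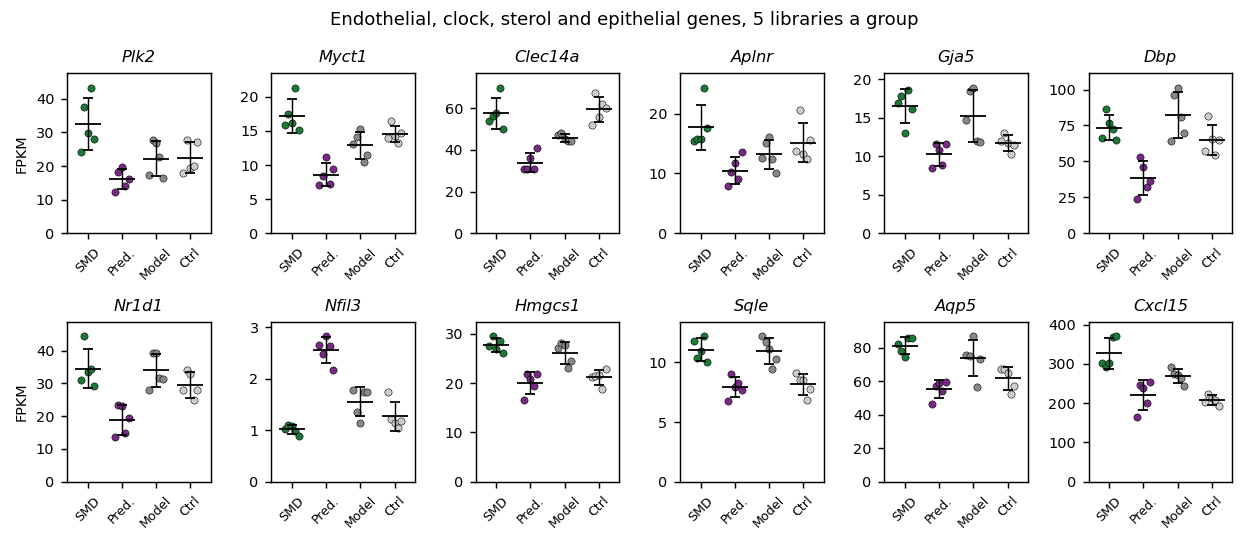
FPKM of 12 genes in each library (points), with the mean and SD of each group of 5 (bar and whiskers), for SMD, prednisone, model and control from left to right. SMD points lie above all prednisone points for every gene shown except Nfil3, whose SMD points all lie below.

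Interferon-inducible GTPases, which attack the vacuoles of microbes inside cells, were measured as 2 families. All 7 immunity-related GTPases had negative log2 fold changes, with a median of -0.71, and all 10 guanylate-binding proteins did, with a median of -0.44. Only Gvin1, a giant GTPase, passed (-0.70 ± 0.17, adjusted p = 0.0213), where 2.42% of all genes tested fell. It was at 5.48, 6.82, 3.41, 3.71 and 4.53 FPKM in SMD libraries and at 6.94, 8.90, 11.4, 10.5 and 4.93 FPKM in prednisone libraries. Prednisone replicate 5 overlapped the SMD range, and prednisone replicates 3 and 4 were high.

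The same libraries set the pattern of the other members. Gbp7 was at 18.0, 20.9, 11.4, 13.2 and 13.2 FPKM in SMD libraries and at 18.2, 23.8, 34.6, 36.1 and 14.1 FPKM in prednisone libraries (-0.64 ± 0.20, adjusted p = 0.0719). Iigp1 averaged 13.6 ± 4.13 FPKM in SMD and 23.8 ± 9.7 FPKM in prednisone lungs (-0.70 ± 0.24, adjusted p = 0.103). Without prednisone replicate 5, 7 of the 7 immunity-related GTPases fell and 3 of the 10 guanylate-binding proteins. Without SMD replicate 2, the numbers were 4 and 2. Without any 1 of SMD replicates 3 and 4 or prednisone replicates 3 and 4, 0 of the 7 passed. In all 17 genes prednisone had the highest mean of the 4 groups. Against the shared model libraries, Iigp1 gave 0.60 in SMD (adjusted p = 0.18) and 1.31 in prednisone (0.00621), and Gbp7 gave 0.50 (0.178) and 1.13 (0.00462).

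Interferon-stimulated response elements hold GAAA repeats, searched here as GAAA, 2 free bases and GAAA, or the reverse complement with TTTC, on both strands and with overlaps allowed. Of the 32851 promoter windows, 1131 held a match (3.44%). Counted by gene rather than by window, so did 5 of 5 guanylate-binding protein genes and 5 of 5 immunity-related GTPase genes with a window. One stretch of each family is shown with matches in capitals, for Gbp7 (chr3:142530243-142530332, plus strand) and Irgm1 (chr11:48871421-48871490, minus strand, where 2 matches overlap).
Gbp7: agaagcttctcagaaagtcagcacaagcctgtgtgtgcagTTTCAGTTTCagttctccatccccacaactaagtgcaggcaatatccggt
Irgm1: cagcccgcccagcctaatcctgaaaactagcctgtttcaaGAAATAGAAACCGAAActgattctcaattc
Other interferon genes went without calls: 0 of 35 type I interferon-stimulated genes passed, with a median of -0.05 and 3 lower at an unadjusted p under 0.05. Of 12 genes of the interferon gamma pathway 0 passed in limma, with 4 lower at an unadjusted p under 0.05. Of 19 genes of MHC class I presentation, B2m alone fell (5.26%, where 2.42% of all genes tested did), averaging 710 ± 32 FPKM in SMD and 856 ± 36.6 FPKM in prednisone lungs (-0.27, adjusted p = 0.0364). Its call was lost without any 1 of SMD replicates 2 to 5 or prednisone replicates 1, 2, 3 and 5.

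**Figure D4:**
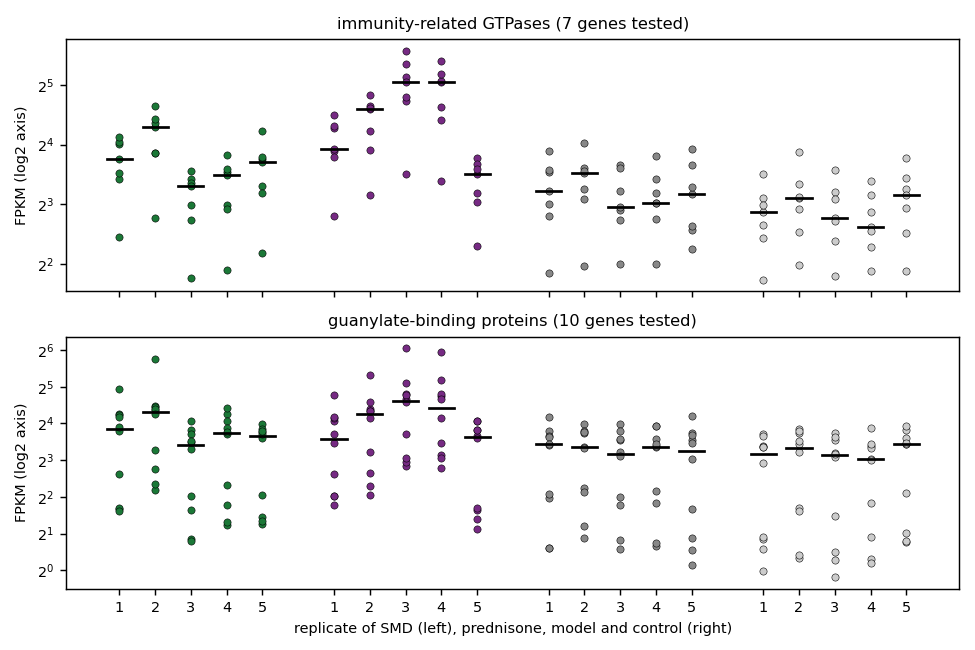
FPKM (log2 axis) of the 7 immunity-related GTPases (top) and the 10 guanylate-binding proteins (bottom) tested, in each library of SMD, prednisone, model and control from left to right. Points are genes and bars are the median over genes, which is highest in prednisone replicates 3 and 4 and falls within the SMD range in prednisone replicate 5. Other prednisone libraries also overlapped SMD by mean log2(FPKM + 1) of the guanylate-binding proteins. That mean was 3.00 to 3.95 in SMD libraries and 3.13 to 4.35 in prednisone libraries, with a prednisone median of 3.87.

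Genes of allergic inflammation gave few calls. Il4, Il5, Il13, Tnf and Muc5ac stayed below the filter of 1 FPKM in 5 libraries and were not tested. Of 12 measured type 2 cytokine and receptor genes 1 rose (8.33%, where 2.16% of all genes tested did), Gata3, a factor of T helper 2 and innate lymphoid cells, which averaged 1.51 ± 0.31 FPKM in SMD and 0.842 ± 0.411 FPKM in prednisone lungs (0.47, adjusted p = 0.049). The call was lost in 23 of 32 alternatives, with an adjusted p up to 0.203. Ccl17, a chemokine that draws T helper 2 cells, averaged 3.64 ± 1.13 and 5.68 ± 0.87 FPKM in SMD and prednisone lungs with overlapping values (-0.55, adjusted p = 0.193). Il33, an epithelial alarmin, gave -0.13 (0.614), Ccl11, the eosinophil chemokine eotaxin, gave 0.01 (0.972), and Il1b gave 0.08 (0.927). Signs of Ccl11 and Il1b flipped under other settings. Retnla and Chil3, products of alternatively activated macrophages, gave 0.19 (0.587) and -0.36 (0.441).

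Among 21 genes of NF-kB and inflammatory cytokines, 1 rose (4.76%) and 2 fell (9.52%), where 2.16% and 2.42% of all genes tested did so. Nfkbia, the inhibitor of NF-kB and a glucocorticoid target, averaged 49.95 ± 9.11 FPKM in SMD and 75.0 ± 10.52 FPKM in prednisone lungs without overlap (-0.58, adjusted p = 0.0316). Rela, the p65 subunit of NF-kB, averaged 20.7 ± 0.96 and 16.9 ± 1.14 FPKM in SMD and prednisone lungs, also without overlap (0.28, adjusted p = 0.0114). Il6ra, the receptor chain for interleukin 6, gave -0.46 (0.0354). The Nfkbia and Il6ra calls were both lost without any 1 of SMD replicates 2, 4 and 5 or prednisone replicates 1, 4 and 5. Il6ra also lost its call without SMD replicate 3 or prednisone replicate 2, and Rela under same-sum scaling (0.214) and without prednisone replicates 1 and 4 (0.092). Of 29 chemokines and receptors 2 rose, Cxcl15 and Cxcl12, and 0 fell (6.9% of the list, where 2.16% of all genes tested rose); Cxcl12 did not pass under same-sum scaling (0.236).

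Of 24 regulators of apoptosis, 4 fell (16.7%) and 1 rose (4.17%), where 2.42% and 2.16% of all genes tested did so, and 2 fell when any 1 of 7 of the 10 libraries compared was left out. Pmaip1, the BH3 protein NOXA, was at 4.29, 3.57, 3.81, 3.604 and 3.22 FPKM in SMD libraries and at 5.81, 5.36, 5.05, 6.14 and 5.71 FPKM in prednisone libraries, without overlap (-0.49, adjusted p = 0.0112). Tnfsf10, the death ligand TRAIL, averaged 22.3 ± 3.55 FPKM in SMD and 13.3 ± 4.06 FPKM in prednisone lungs (0.74, adjusted p = 0.0144). The Tnfsf10 call was lost under same-sum scaling (limma adjusted p = 0.0662) and in a fit of the 10 libraries alone (0.0526). Without prednisone replicates 1 and 4, the calls of Tnfsf10 (0.0932) and Pmaip1 (0.0712) were both lost. Srxn1, sulfiredoxin, which restores oxidised peroxiredoxins, averaged 6.02 ± 0.44 and 4.39 ± 0.3 FPKM in SMD and prednisone lungs (0.38, adjusted p = 0.00278). Srxn1 was 1 of the 2 genes that rose among 31 of glutathione and antioxidant defence (6.45%). The other, Gss, lost its call in 19 alternatives, same-sum scaling among them (limma adjusted p = 0.0939). Gss also overlaps Acss2 on the other strand.

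Large housekeeping groups shifted little. Of 42 mitochondrial ribosomal protein genes 35 had positive log2 fold changes (median 0.12) and 3 rose (7.14%, where 2.16% of all genes tested did), but 0 did under same-sum scaling and 0 without SMD replicate 1 or SMD replicate 4. Of 64 nuclear genes of the respiratory chain 51 were positive (median 0.08) and 0 passed, with 10 higher and 1 lower at an unadjusted p under 0.05. Same-sum scaling moved the median of all genes to -0.07. Of 71 cytosolic ribosomal protein genes 0 passed, with 1 higher at an unadjusted p under 0.05, and of 25 genes of glycolysis 0 passed, with 1 lower. Markers of B cells (15 tested), T cells (16), monocytes (12) and neutrophils (8) gave no call, with 0, 2, 0 and 0 at an unadjusted p under 0.05.

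**Figure D5:**
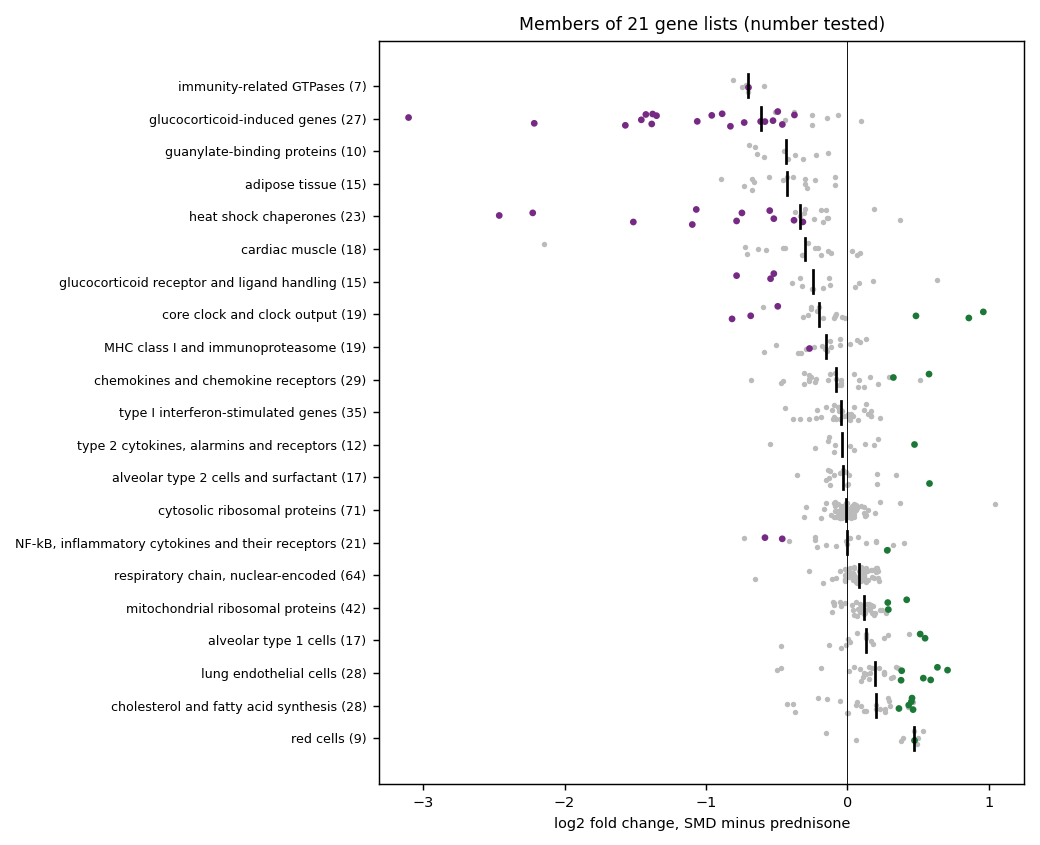
Log2 fold change (SMD minus prednisone) of each tested member of 21 gene lists, with the number tested in brackets. Purple members passed and were lower in SMD, green members passed and were higher, grey did not pass, and black bars are list medians, from -0.71 for the immunity-related GTPases to 0.47 for red cell genes.

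Markers of tissues next to the lung also tended to differ between the groups, mostly without calls. All 15 adipose genes had negative log2 fold changes (median -0.43) and 0 passed, with 0 at an unadjusted p under 0.05. Lep, the fat hormone leptin, was at or below 0.0281 FPKM in all 10 libraries. With the fat score as a covariate, 18 glucocorticoid-induced genes and 11 heat shock genes fell, against 19 and 11 without it. Of 18 cardiac muscle genes 15 were negative (median -0.30) and 0 passed, with 4 lower at an unadjusted p under 0.05. Nppa, the atrial natriuretic peptide, was at 0.385, 1.15, 1.19, 4.41 and 0.901 FPKM in SMD libraries and at 25.4, 20.1, 21.4, 4.67 and 0.596 FPKM in prednisone libraries (-2.14 ± 0.80, adjusted p = 0.139), with both low and high prednisone libraries. Of 9 red cell genes 8 were positive, with a summed FPKM of 4232 to 9872 in SMD and 3649 to 6472 in prednisone libraries. Bpgm, the enzyme that makes bisphosphoglycerate in red cells, rose (0.47, adjusted p = 0.00513), a call lost under same-sum scaling (0.0652). The part of heart, fat and blood in the other results was otherwise not tested.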

How the data were processed

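RNA from mouse lungs was sequenced in 20 libraries, 5 each of SMD, prednisone, model and control. TRIzol extraction, a NEBNext Ultra kit and paired Illumina NovaSeq reads are named in the labels' protocols. The submitters' processing notes name fastp, HISAT2, featureCounts, DESeq2 and the build GRCm38, with no versions. The authors deposited FPKM values per gene for all libraries; the sources used here do not name the tool, the annotation release or the strand setting behind them. FPKM values did not resolve into whole reads (at most 14.9% of values lay within 0.05 of a whole number, where chance gives 10%), so depth is unknown and no counting interval is given.

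Values were taken as log2(FPKM + 1). Genes with at least 1 FPKM in at least 5 of the 20 libraries were kept, 15106 of 54532. limma 3.58.1 in R 4.3.3 (linear fit, moderated variances with a trend, 4 groups, no covariate) gave the SMD minus prednisone contrast. Tests were two-sided with Benjamini-Hochberg adjustment over all genes tested, and a gene passed at an adjusted p under 0.05. Fold changes on this scale understate the change of low genes. The fit was checked on simulated data. Replicate numbers did not pair the libraries: correlations of same-numbered deviations ran from -0.15 to 0.04.

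The comparison, the gene lists and the genes named were chosen with earlier results of these data known. Named genes were the 15 largest rises and falls among passing genes without overlap (predicted genes, pseudogenes and small RNAs left out), up to 4 passing members of each list described and a set of asthma and reference genes; others, such as Sgk1, were named after their values were seen, and a few genes are not reported here. Alternatives covered scaling, pseudocount, filter, covariates, replicate block and each library left out. Gene positions come from the annotation of GRCm38, and promoter sequences from RefSeq GRCm38.p6.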

Additional observations from a re-analysis of the deposited data

Results flagged for a closer look

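In 16 of 298 groups of 5 libraries examined, 1 library lay far from the others by Dixon's criterion, where chance gives about 1 in 20. None was weighed. In SMD replicate 1, Klf15 was high at 19.91 FPKM (nearest 10.76), as were Map3k6 at 4.618 and Cd163 at 1.493 FPKM. In SMD replicate 2, Il33 was low at 13.88 FPKM and Ppbp high at 5.831 FPKM. In SMD replicate 3, Retnla was at 48.89 FPKM, Ndufa11 low at 44.57 FPKM and Il13 at 0.07103 FPKM. In SMD replicate 4, Nppa was high at 4.41 FPKM, Aplnr at 24.3 FPKM, and Rpl10a low at 121.7 FPKM (nearest 250.8). Zfp933 was at 2.743 FPKM in SMD replicate 5. Among prednisone libraries, Ighg1 was at 15.12 FPKM in replicate 2, Klrk1 at 4.855 FPKM in replicate 4, Pfkp at 9.622 FPKM in replicate 5, and Il13 at 0.01873 FPKM in replicate 1, with the others listed at 0.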

How the results depend on the processing

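Of 693 genes passing between SMD and prednisone (327 higher, 366 lower), 407 passed with every library scaled to the same sum, of which 72 were higher, and the median of all genes moved to -0.0692 (log2). The share of passing genes that were higher was 47.2%, 17.7% under that scaling and 58.5% with length and GC trends removed. Quantile normalization gave 503 higher genes and median-of-ratios scaling 889 passing genes. Without a filter, 453 passed and 208 were higher, and in a fit of the 10 libraries alone 204 were higher. Leaving out 1 library gave 457 to 722 passing genes, 174 to 342 higher, 244 to 399 lower and 916 to 1331 without overlap. Without prednisone replicates 1 and 4, tried after the data were seen, 333 passed, 117 higher and 216 lower, and 2088 did not overlap, since fewer libraries must be separated. With the replicate number as a block, 650 passed (277 higher, 373 lower); the numbers do not pair the libraries. The causes of the other shifts were not tested.

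Among the genes named here, none that had passed reversed its sign under the alternatives run. The reversals below are of genes that had not passed. Sftpc was -0.3023 with quantile normalization, -0.0701 with same-sum scaling, -0.0287 with length and GC trends removed and -0.073 without prednisone replicates 1 and 4. Flt1 was -0.0006 with quantile normalization and -0.0638 with same-sum scaling. Same-sum scaling gave -0.0244 for Ccl11 and -0.0198 for Nr3c1. The fat score gave -0.0301 for Il1b, and length and GC correction gave 0.0023 for Lamp2. Without prednisone replicates 1 and 4, Calca was 0.0351, Ppbp 0.0512, Nr3c1 -0.0305 and Il1b -0.2722. With 1 library left out, Sftpc ran from -0.0508 to 0.0609, Ccl11 from -0.0392 to 0.0691, Il1b from -0.1081 to 0.2618 and Flt1 from -0.0505 to 0.0614. Depth is unknown, and low genes such as Il4, Il5 and Il13 stayed below the filter.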

Other observations

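Immunoglobulin genes varied widely among libraries. Ighg1, the constant region of IgG1, had a log2 fold change of -1.20 between SMD and prednisone lungs (limma adjusted p = 0.0931), and Ighg2b, that of IgG2b, one of -0.96 (adjusted p = 0.17). Of 18 plasma cell and immunoglobulin genes 0 passed, with 0 higher and 2 lower at an unadjusted p under 0.05. All 10 genes of natural killer and cytotoxic cells had negative log2 fold changes, with a median of -0.26, and 0 passed, with 1 lower at an unadjusted p under 0.05.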
